A study of Saccharomyces cerevisiae with 9 samples.

Results

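YLK804 is a laboratory yeast strain that carries the SAL1 allele of the vineyard strain RM11-1a in the BY4724 background, and it was compared here with the laboratory strain BY4716. The comparison used 4 of the 9 arrays of the study, 1 of YLK804 and 3 of BY4716. The other arrays held 3 of RM11-1a, 1 of YLK806, an RM11-1a strain given the SAL1 of BY, and 1 of YAD350, a strain with an exchanged MKT1 allele in BY4742. YLK804, BY4716, YLK806 and RM11-1a grew in yeast nitrogen base with 2% glucose (20 g/L), leucine and lysine at 100 mg/L each and uracil at 20 mg/L. YLK804 was on 1 array, so its differences from BY4716 have no replicate check on the YLK804 side, and its spread was assumed to be that of the parental arrays.

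BY4724 and BY4716 are not the same strain apart from SAL1. As background, both belong to the same S288C-derived collection and both lack LYS2, but BY4724 is of mating type a and lacks URA3, whereas BY4716 is of mating type alpha and keeps URA3. A haploid yeast cell transcribes either the a-specific or the alpha-specific genes, under regulators encoded at the MAT locus, while silent copies of both cassettes lie at HML and HMR. URA3 encodes orotidine-phosphate decarboxylase of pyrimidine synthesis, whose intermediates activate the regulator Ppr1. SAL1 encodes a calcium-dependent carrier of adenine nucleotides in the inner mitochondrial membrane, and the S288C allele is known to carry a frameshift. Genes of the mating type lists, genes of the URA3 lists and all other genes are therefore given apart. The effect of the SAL1 allele alone cannot be told apart from any other difference between BY4724 and BY4716 in this pair of strains.

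Each array carried the strain RNA and a common reference, a pool of RNA from BY4716 and RM11-1a grown on glucose and on ethanol, in the other dye. A log2 ratio is Cy5, the strain, over Cy3, the common reference. The labels of the YLK804 array disagree on which dye held the strain. The array correlated across genes with the BY4716 mean at r = 0.879 and with the RM11-1a mean at r = 0.506, against 0.986 to 0.991 between BY4716 arrays, and the strain was read as Cy5. Median spot signals were 424 in Cy5 and 272 in Cy3 on the YLK804 array, against 240 to 336 in Cy5 and 179 to 191 in Cy3 on the BY4716 arrays. In Cy5, 5872 of 6256 genes were well above background on the YLK804 array, against 5623 to 5734 on the BY4716 arrays. The YLK804 array was read on the same day as the YLK806 array and on no day with a BY4716 array, with a later version of the scanner software, so strain and scan day cannot be told apart in this comparison.

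In YLK804, 1240 of 5865 tested genes differed from BY4716 (limma, Benjamini-Hochberg adjusted p under 0.05), which is 21.1% of those tested, with 644 higher (11%) and 596 lower (10.2%). The count was 590 without BY4716 array 7 and 623 without BY4716 array 11. Of these, 45 differed by 2-fold or more. The mating type lists gave 29 of 57 tested genes, 12 higher and 17 lower (50.9%). The URA3 lists gave 11 of 25, 7 higher and 4 lower (44%), and all other genes gave 1200 of 5783, 625 higher and 575 lower (20.8%). Of the 45 genes that differed by 2-fold or more, 17 lay in the mating type lists, 4 in the URA3 lists and 24 elsewhere. These arrays measured whole cultures, so less RNA per cell and fewer cells that make a transcript cannot be told apart. Nothing in the labels says that the BY4716 arrays came from separate cultures, so the p-values measure only the spread between arrays, which may be technical.

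The a-specific genes were high in YLK804. STE2, the receptor for alpha-factor, had a log2 ratio of 1.37 on the YLK804 array, against -3.52, -3.24 and -3.33 on the BY4716 arrays. The YLK804 value stood far above all 3 BY4716 values, with a log2 difference of 4.73 ± 0.11 (SE, limma adjusted p = 2.5e-07). STE6, the exporter of a-factor, was at 1.56 in YLK804, against -2.60, -2.49 and -2.52 in BY4716, a difference of 4.10 ± 0.06. BAR1, the secreted protease that degrades alpha-factor, was at 2.37 in YLK804, against -1.77, -1.53 and -1.65 in BY4716, a difference of 4.02 ± 0.09. Neither gene's groups overlapped, and the difference lay in the strain channel, with Cy5 changes of 3.56 for STE6 and 4.11 for BAR1 against Cy3 changes of -0.53 and 0.09.

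MFA1 and MFA2 encode the precursors of a-factor. MFA1 was at 3.12 in YLK804, against -0.45, -0.33 and -0.44 in BY4716. In Cy5 it was well above background on 2 of the 3 BY4716 arrays. MFA2 was at 1.61 in YLK804, against -1.66, -1.48 and -1.65 in BY4716. Their log2 differences were 3.53 ± 0.06 and 3.20 ± 0.08 (SE). ASG7, which acts on pheromone signalling in a cells after mating, differed by 2.24 ± 0.05. AGA2, the binding subunit of a-agglutinin, was well above background in Cy5 on none of the 3 BY4716 arrays and was at least 1.63-fold higher in Cy5 of YLK804 (limma adjusted p in Cy5 = 0.000954). Its measured log2 ratio, which also holds Cy3, was 0.51 in YLK804, against -0.17, -0.16 and -0.17 in BY4716. The eighth member of the a list, AFB1, was at -1.48 in YLK804, against 0.79, 0.92 and 0.90 in BY4716, and fell by 2.34 ± 0.08. AFB1 encodes the a-factor barrier and is known to be made by alpha cells, so its place in the a list goes against its known role. Of the 8 members of the a list, 7 were higher and 1 was lower, and the median log2 difference was 3.37. Without AFB1, left out after the data were seen, the 7 remaining genes rose with a median of 3.53. The median over all tested genes was -0.01.

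All 4 alpha-specific genes of their list fell. MF(ALPHA)1, the main alpha-factor precursor gene, was at -5.02 in YLK804, against 0.99, 1.11 and 1.06 in BY4716, and its log2 difference of -6.08 ± 0.07 (SE, limma adjusted p = 1.62e-08) had the largest size among the tested genes. STE3, the receptor for a-factor, was at -3.49 in YLK804, against 0.96, 0.94 and 0.99 in BY4716, a difference of -4.45 ± 0.08. SAG1, alpha-agglutinin, was at -2.21 in YLK804, against 1.18, 1.26 and 1.43 in BY4716, a difference of -3.50 ± 0.11. MF(ALPHA)2, the minor alpha-factor precursor gene, was not well above background in Cy5 of YLK804 and was well above it on all 3 BY4716 arrays. It was at least 7.71-fold lower in Cy5 of YLK804 (limma adjusted p in Cy5 = 2.57e-06). Its measured log2 ratios were -1.67 in YLK804, against 1.13, 1.28 and 1.38 in BY4716. The list's median log2 difference was -3.97.

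The mating loci followed the same split. MATALPHA1, which encodes the activator of alpha-specific genes, was at -1.54 in YLK804, against 1.19, 1.23 and 1.18 in BY4716, a log2 difference of -2.74 ± 0.05 (SE). HMLALPHA1, the silent copy of the same sequence, differed by -2.79 ± 0.07. MATALPHA2, the repressor of a-specific genes, differed by -1.25 ± 0.09 and its silent copy HMLALPHA2 by -1.17 ± 0.10. HMRA1, the silent copy of the a1 regulator gene, was well above background in Cy5 on no BY4716 array and was at least 4.84-fold higher in Cy5 of YLK804 (limma adjusted p in Cy5 = 2.66e-05). HMRA2 differed by -1.34 ± 0.11. The silent and expressed cassettes share sequence, so a probe named for one reads transcripts of the other as well, and which copy gave the signal was not tested.

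**Figure D1:**
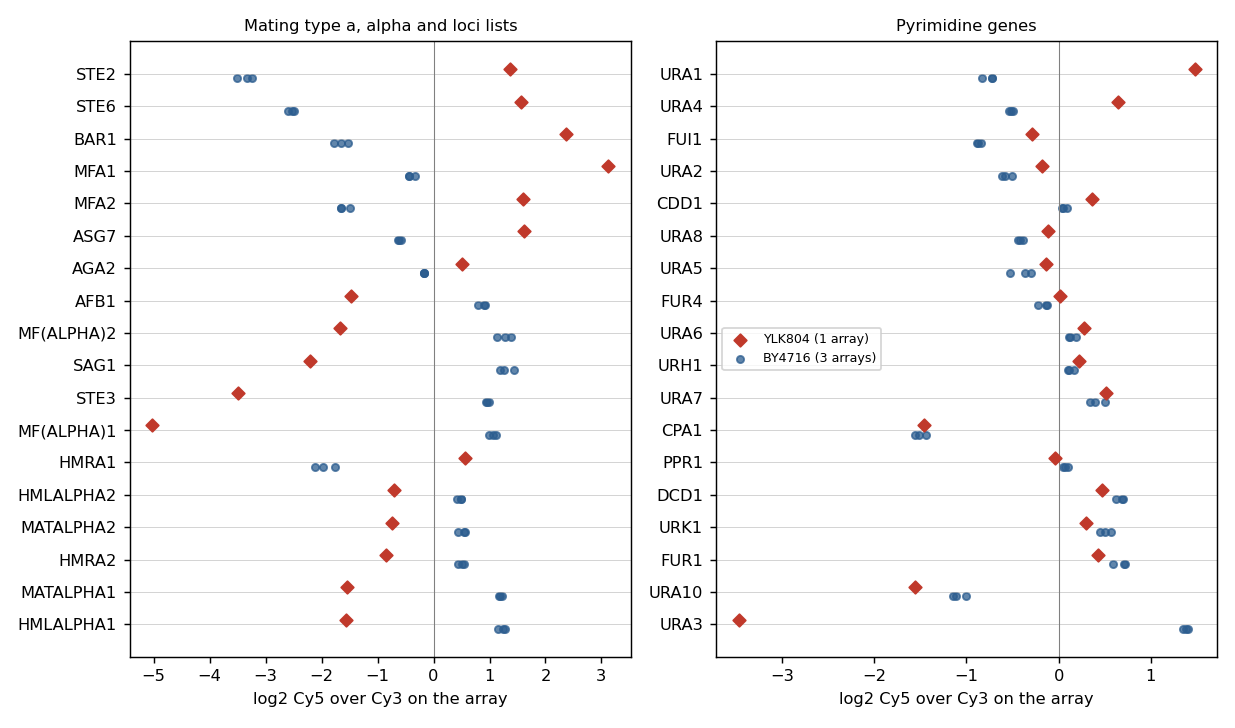
Log2 Cy5 over Cy3 of the members of the mating type a, alpha and loci lists (left) and of 18 genes of the pyrimidine list (right), with YLK804 as diamonds above the 3 BY4716 arrays as circles. STE2 lies at 1.37 in YLK804 and between -3.52 and -3.24 in BY4716, and URA3 at -3.47 in YLK804 and between 1.35 and 1.40 in BY4716.

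Genes that pheromone induces in both mating types moved less. Among the 21 tested pheromone response genes, 2 were called higher and 5 lower (33.3%, beside 21.1% of all tested genes), and their median log2 difference was -0.07. FIG2, a mating-induced adhesin, differed by -0.44 ± 0.07 (SE) and AGA1, the anchor subunit of a-agglutinin, by -0.38 ± 0.08, a call lost without BY4716 array 9 or 11. FUS1, which acts in cell fusion, differed by -0.28. KSS1, a MAP kinase of the pathway, was higher by 0.46 ± 0.07 and MSG5, a phosphatase of the same pathway, by 0.32 ± 0.05. Of 18 haploid signalling genes 2 rose and 2 fell (22.2%), and the largest difference called among them was 0.26 ± 0.06 for the kinase gene STE20, a call lost with median centring and with the deposited ratio. HO, the endonuclease of mating type switching, had a difference of -0.17 that did not pass the test (limma adjusted p = 0.328).

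URA3 was low in YLK804, and URA1 and URA4, genes of earlier pyrimidine steps, were high. URA3 was at -3.47 on the YLK804 array, against 1.40, 1.38 and 1.35 on the BY4716 arrays, a log2 difference of -4.84 ± 0.08 (SE, limma adjusted p = 6.39e-08). URA1, dihydroorotate dehydrogenase, was at 1.47 in YLK804, against -0.72, -0.83 and -0.72 in BY4716, a difference of 2.23 ± 0.07 or 4.7-fold. URA4, dihydroorotase, was at 0.65 in YLK804, against -0.50, -0.54 and -0.51 in BY4716, a difference of 1.17 ± 0.05 or 2.24-fold. In these 3 genes the YLK804 value lay outside the BY4716 range by many times that range, and the strain channel carried it. Their Cy5 changes were -4.62, 2.21 and 1.44, against Cy3 changes of 0.22, -0.02 and 0.27.

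FUI1, the uridine permease gene, was higher in YLK804 by 0.59 ± 0.11 (SE, limma adjusted p = 0.0147), and URA2, the enzyme of the first pathway steps, by 0.39 ± 0.07. URA8, a CTP synthase gene, was higher by 0.30 ± 0.07, a call lost without any 1 of the BY4716 arrays. All 3 were also higher in Cy5 alone. CDD1 (0.30), FUR1 (-0.24) and DCD1 (-0.20) passed the test in the ratio but not in Cy5, and each passed in Cy3 with the opposite sign. URA5, URA6, URA7, URA10, FUR4, URK1, URH1, CPA1 and PPR1, which encodes the pathway's activator, were not called, with differences between -0.47 and 0.26. In all, 7 of 19 members of the pyrimidine list rose and 3 fell (52.6% called, beside 21.1% of all tested genes), and the median was 0.14.

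Of the 6 neighbours of URA3 that were tested, TIM9 fell and the other 5 were not called (16.7% called, beside 21.1% of all tested genes). TIM9, which lies next to URA3 in the gene order and encodes a chaperone of mitochondrial protein import, was at -1.54 in YLK804, against -0.28, -0.29 and -0.31 in BY4716, a log2 difference of -1.25 ± 0.07 (SE, limma adjusted p = 8.71e-05). Its Cy5 change was -1.15 and its Cy3 change 0.10. RM11-1a also lacks URA3 by its known genotype, and there TIM9 differed from BY4716 by 0.54. GEA2, on the other side of URA3, had a difference of 0.06, and RIP1 (-0.10), YEL023C (-0.15), PXP1 (-0.20) and MMS21 (0.06) were likewise not called.

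SAL1 itself was lower in the ratio, by an amount that both channels shared. It was at -0.65 in YLK804, against -0.17, -0.13 and -0.11 in BY4716, a log2 difference of -0.51 ± 0.05 (SE, limma adjusted p = 0.00201). The Cy5 change was -0.25 ± 0.08 and did not pass the test (adjusted p = 0.065), while the Cy3 change was 0.26 ± 0.06 and did (adjusted p = 0.0043). In YLK806, which carries the BY allele, SAL1 differed from RM11-1a by 0.04. Among the neighbours of SAL1, EOS1 (-0.39), PMS1 (-0.31) and SNN1 (-0.19) were called lower, and TPM1, SWS2, END3, MKT1 and TCB2 were not called. With SAL1 itself counted, 4 of 9 were called (44.4%, beside 21.1% of all tested genes). The calls of PMS1 and SNN1 were lost without any 1 of the BY4716 arrays. None of the 3 called neighbours passed in Cy5. EOS1 rose in Cy3 by 0.49 and fell by 0.43 in YLK806 as well.

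Of the marker genes, LYS2, which both strains lack by their known genotype, was at -3.84 in YLK804, against -3.31, -3.02 and -3.13 in BY4716. Both lay far under the common reference, and the difference of -0.69 passed the test. What gave the signal in strains without the gene was not tested. LEU2 (-0.10), HIS3 (-0.04), ADE2 (0.01) and TRP1 (-0.09) were not called. MET17 was called higher at 0.37, with Cy5 at -0.79 and Cy3 at -1.17, and the call was lost with median centring of the arrays.

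Both channels of the YLK804 array differed from those of the BY4716 arrays. In Cy5, which held the strain, 1585 of 5865 genes were called (27%), 901 higher (15.4%) and 684 lower (11.7%), and 1022 without BY4716 array 11 and 1051 without BY4716 array 7. With the deposited processed signals 754 were higher and 856 lower. In Cy3, which held the common reference, 3330 were called (56.8%), 1982 higher (33.8%) and 1348 lower (23%). Between RM11-1a and BY4716, whose arrays also used this reference, 40 genes were called in Cy3 (0.682%), and between YLK806 and RM11-1a 3782 were (64.5%). The median size of the change over all tested genes was 0.157 in Cy5, 0.18 in Cy3 and 0.117 in the ratio, on the log2 scale. Changes in Cy5 and Cy3 of YLK804 had a correlation of 0.618 across genes, which are not independent, since the channels share spots, probes and an array. The Cy3 change of a gene on the YLK804 array and that on the YLK806 array had a correlation of 0.647 across genes.

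The channel that moved differed between the gene sets. Of the 29 called mating type genes, Cy3 had moved more than Cy5 in 4, and 24 were also called in Cy5 in the same direction. Of the 11 called genes of the URA3 lists, Cy3 had moved more in 4 and 7 were also called in Cy5. Of the 1200 called genes outside these lists, Cy3 had moved more than Cy5 in 764 (63.7%), and 274 (22.8%) were also called in Cy5 in the same direction. In 591 of the 1200, Cy3 was called with the opposite sign and Cy5 was not called. In 173, Cy5 was called with the same sign and Cy3 was not called. Falls outside the lists had moved more in Cy3 in 408 of 575 cases, and rises in 356 of 625. Over all tested genes the median change was also larger in Cy3, at 0.18, than in Cy5, at 0.157. The share of all tested genes with more change in Cy3 was not counted.

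**Figure D2:**
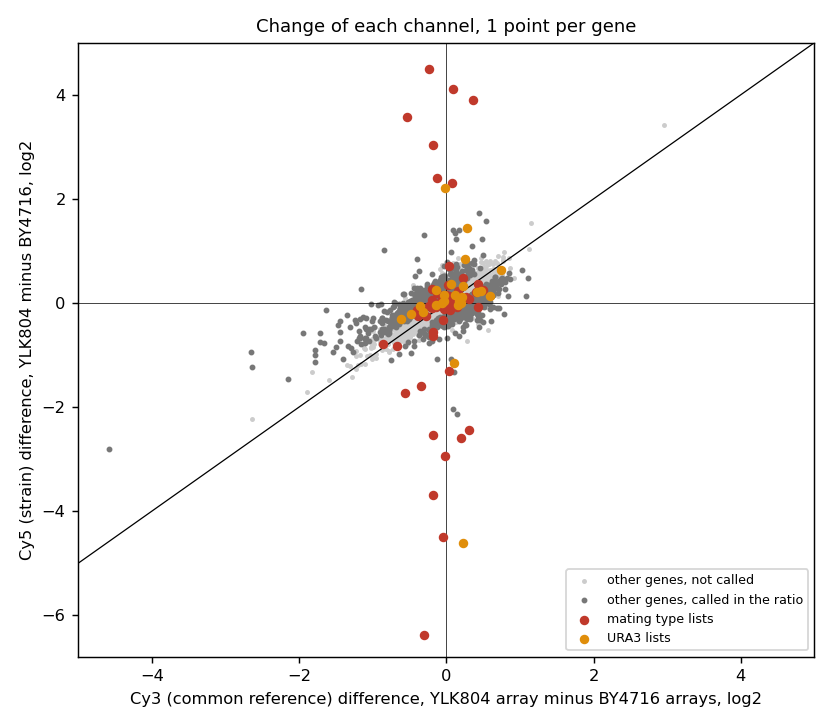
Change of each tested gene between the YLK804 array and the mean of the BY4716 arrays, with Cy5 (strain) on the vertical axis and Cy3 (common reference) on the horizontal axis, both in log2, and the line of equal change. Mating type and URA3 genes spread along the vertical axis, while called genes outside the lists reach Cy3 changes of -4.59.

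Outside the mating type and URA3 lists, the falls led by Cy5 included genes of phosphate uptake and storage. As background, these genes are induced by the regulator Pho4 when phosphate is short. PHO89, a sodium-coupled phosphate transporter gene, was at -1.13 in YLK804, against 0.29, 0.25 and 0.38 in BY4716, a log2 difference of -1.44 ± 0.07 (SE, limma adjusted p = 1.87e-05). SPL2, which acts on low-affinity phosphate uptake, was at 0.67 in YLK804, against 1.76, 1.75 and 1.94 in BY4716, a difference of -1.14 ± 0.11. PHO84, the high-affinity phosphate transporter gene, was at 0.72 in YLK804, against 1.61, 1.39 and 1.58 in BY4716, a difference of -0.80 ± 0.13. In each of these 3 genes the YLK804 value lay below all BY4716 values, and each was called lower in Cy5, by -1.33, -1.07 and -0.63.

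VTC3, a subunit of the polyphosphate polymerase complex, had a difference of -0.77 ± 0.09 (SE) and PHM6, a vacuolar protein gene of the same regulon, of -0.69 ± 0.10, and both were called lower in Cy5. PHO11, VTC1 and PHO90 also fell in both the ratio and Cy5. PHO81, VTC2 and VTC4 fell in the ratio only. PHO5, the main secreted acid phosphatase gene, had a difference of 0.08 that was not called, and PHO4 was called higher at 0.53 with Cy5 at 0.04 and Cy3 at -0.49. In all, 11 of 26 tested members of the phosphate list fell and 1 rose (46.2% called, beside 21.1% of all tested genes), with a median of -0.20. In Cy5, 10 of the 26 were called lower and 5 higher, beside 11.7% and 15.4% of all tested genes. The Cy5 median of the list was -0.09. In YLK806, 4 members fell and 1 rose against RM11-1a.

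RIB4, which encodes lumazine synthase of riboflavin synthesis, was at 0.86 in YLK804, against -0.43, -0.36 and -0.48 in BY4716. Its log2 difference was 1.28 ± 0.07 (SE, limma adjusted p = 4.47e-05), with Cy5 at 1.72 and Cy3 at 0.44. COS8, a member of a subtelomeric family whose products act in sorting of membrane proteins, was at 1.49 in YLK804, against 0.18, 0.21 and 0.16 in BY4716, a difference of 1.31 ± 0.06. YIR043C, a relative of the same family, was also at 1.49 in YLK804, against 0.26, 0.27 and 0.23 in BY4716. Values of COS8 and YIR043C were close to each other on each of these arrays, and as members of a family with near-identical copies they are uncertain as separate genes. Of the 12 tested COS genes, COS8 and COS7 (0.44) rose, COS12 fell (-0.23) and the other 9 were not called, which is 25% called beside 21.1% of all tested genes. The COS12 call was lost without any 1 of the BY4716 arrays.

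YCR041W and YCR097W-A had the largest falls outside the lists. YCR041W was at -1.36 in YLK804, against 0.90, 0.94 and 0.90 in BY4716, a log2 difference of -2.28 ± 0.05 (SE). YCR097W-A differed by -2.12 ± 0.06. In the R64 gene order YCR041W is the next gene after MATALPHA1, and the name of YCR097W-A places it beside HMRA1, which was noticed after the values were seen. Both were also lower in RM11-1a, a strain of mating type a, than in BY4716, by -1.76 and -1.67. TAF2, the next gene after YCR041W, had a difference of -0.09 that was not called.

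Other called genes outside the lists with most of their change in Cy5 were the hexose transporter gene HXT2, at -0.55 in YLK804, against 0.45, 0.40 and 0.37 in BY4716, and the genes YRO2, YGP1 and MDH2. HXT2 fell by 0.95 ± 0.14 (SE). YRO2, a plasma membrane protein gene that responds to stress, rose by 1.22 ± 0.31, a call lost without any 1 of the BY4716 arrays. YGP1, a secreted glycoprotein gene of starved cells, rose by 1.03 ± 0.23, and that call was lost in the same way. MDH2, cytosolic malate dehydrogenase, rose by 0.76 ± 0.15. YBR096W, whose function is not well known, rose by 1.62 ± 0.13, with Cy5 at 1.31 and Cy3 at -0.30, and it also rose by 1.59 in YLK806.

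BUD19 and ATP8 rose in the ratio and fell in both channels. BUD19, an open reading frame that overlaps RPL39, was at 0.38 in YLK804, against -1.81, -1.14 and -1.24 in BY4716, a log2 difference of 1.78 ± 0.23 (SE). Its Cy5 change was -2.81 and its Cy3 change -4.59, while RPL39, a ribosomal protein gene, had a ratio difference of 0.21 that was not called. ATP8, a mitochondrially encoded subunit of ATP synthase, was at 0.06 in YLK804, against -1.78, -1.54 and -1.64 in BY4716, a difference of 1.71 ± 0.10, with Cy5 at -0.94 and Cy3 at -2.65. COB, the mitochondrially encoded cytochrome b gene, differed by 1.37 ± 0.17, with Cy5 at -0.57 and Cy3 at -1.95. HSP12, a stress-induced membrane protein gene, was at -2.50 in YLK804, against -4.24, -4.12 and -4.77 in BY4716, a difference of 1.87 ± 0.37. Its Cy5 rise of 1.02 did not pass the test (limma adjusted p = 0.079), and its Cy3 change was -0.85. All 4 were also called higher in YLK806 than in RM11-1a.

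Of the 8 mitochondrially encoded genes tested, 5 rose in the ratio and none fell (62.5% called, beside 21.1%), with a median of 0.76. In Cy5 their median change was -0.48, and in Cy3 it was -1.42. The 3 members not called in the ratio were OLI1 (0.11), VAR1 (0.14) and COX2 (-0.12), and COX2 was well above background in Cy5 on none of the YLK804 and BY4716 arrays. OLI1, subunit c of ATP synthase, had the largest Cy5 fall of the 8, at -1.49, beside a Cy3 fall of -1.60. In YLK806 all 8 were called higher than in RM11-1a. Of 41 oxidative phosphorylation subunits, 3 rose and 2 fell in YLK804 (12.2%), with a median of 0.01, and that median changed sign with median centring of the arrays, at -0.03, and with scaling between arrays, at -0.04. Of 74 mitochondrial ribosomal proteins 4 rose and 4 fell (10.8%), with a median of -0.11, and of 18 TCA cycle genes 2 rose and 1 fell (16.7%).

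Among the 32 mitochondrial carriers, the family to which SAL1 belongs, 3 rose and 9 fell (37.5% called, beside 21.1% of all tested genes), with a median of -0.11 in the ratio, 0.02 in Cy5 and 0.10 in Cy3. CRC1, the carnitine carrier gene, fell by 0.96 ± 0.14 (SE) in the ratio, with Cy5 at 0.13 and Cy3 at 1.09, and it fell by 0.97 in YLK806 too. The CRC1 call in YLK804 was lost with plain background subtraction and with the deposited ratio. PET9, the major carrier of ADP and ATP, had a difference of -0.53 that rests on 1 BY4716 array, after outlier spots were left out. YMC1 (-0.40) and ORT1, a carrier of ornithine (-0.39), were called lower in the ratio and higher in Cy3, and not called in Cy5. REG2, outside the family and a subunit of a glucose-regulated phosphatase, had changes of -0.99 in the ratio, -0.21 in Cy5 and 0.78 in Cy3, and its call was lost in the same settings.

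**Figure D3:**
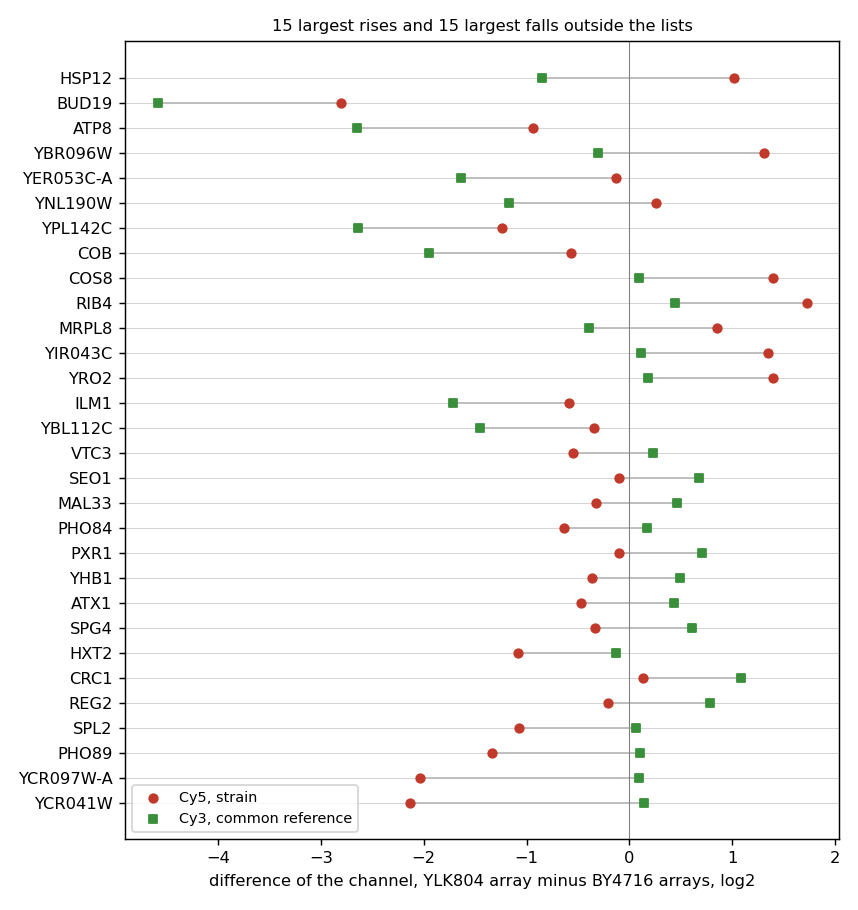
Cy5 (circles) and Cy3 (squares) changes, in log2, of the 15 largest called rises and 15 largest called falls in the ratio outside the mating type and URA3 lists, where the distance between the symbols is the change in the ratio. RIB4, COS8, YIR043C, PHO89, SPL2, YCR041W and YCR097W-A have their Cy3 symbol no farther than 0.44 from 0, whereas BUD19 and ATP8 have both symbols below 0.

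The lists of growth and stress genes given here had ratio medians from -0.14 to 0.16. Their shares of called genes stand beside 21.1% of all tested genes. The 67 ribosome biogenesis genes gave 1 rise and 21 falls (32.8%) and medians of -0.14 in the ratio, -0.12 in Cy5 and 0.03 in Cy3. NHP2, a protein of small nucleolar ribonucleoproteins, differed by -0.52 ± 0.09 (SE), and MAK16, a factor of large subunit assembly, by -0.42 ± 0.06, of which MAK16 was called in Cy5. The 139 cytosolic ribosomal protein genes gave 18 rises and 19 falls (26.6%) and a median of 0.02. Among the 55 genes of the environmental stress list, 10 were called higher and 3 lower (23.6%), and the medians were 0.16 in the ratio and 0.31 in Cy5. In Cy5, 14 of the 55 were called higher and 2 lower, beside 15.4% and 11.7% of all tested genes. Over the BY4716 arrays the ratio median of this list had an SD of 0.23. DDR2, a DNA damage responsive gene of that list, rose in the ratio by 1.11 ± 0.13, with Cy5 at -0.24 and Cy3 at -1.34, and PHM7, a membrane protein gene, rose by 0.75 ± 0.14, with Cy5 at 0.72 and Cy3 at -0.03.

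Of 27 genes of glycolysis and fermentation 6 rose and 5 fell (40.7%, beside 21.1% of all tested genes), with a median of 0.02. TDH3, the main glyceraldehyde-3-phosphate dehydrogenase gene, rose by 0.52 ± 0.07 (SE), and GLK1, glucokinase, by 0.58 ± 0.14, both called in Cy5 as well. PDC5, a pyruvate decarboxylase gene, rose in the ratio by 0.79 ± 0.12 with falls of 0.99 in Cy5 and 1.78 in Cy3. Of 23 thiamine and vitamin B6 genes 7 fell and none rose (30.4%), with a median of -0.15 in the ratio, 0.07 in Cy5 and 0.25 in Cy3, and 9 fell and 1 rose in YLK806. SNZ1, of vitamin B6 synthesis, fell by 0.59 ± 0.09 and was also called lower in Cy5, at -0.28. Among 26 cell wall integrity genes 5 rose and none fell (19.2%), and CCW12, a cell wall mannoprotein gene, rose by 0.89 ± 0.08 with Cy5 at -0.04 and Cy3 at -0.93. Of 27 iron uptake genes 1 rose and 1 fell (7.41%), of 15 leucine and branched-chain genes 1 rose (6.67%), and of 11 lysine genes 2 fell (18.2%).

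**Figure D4:**
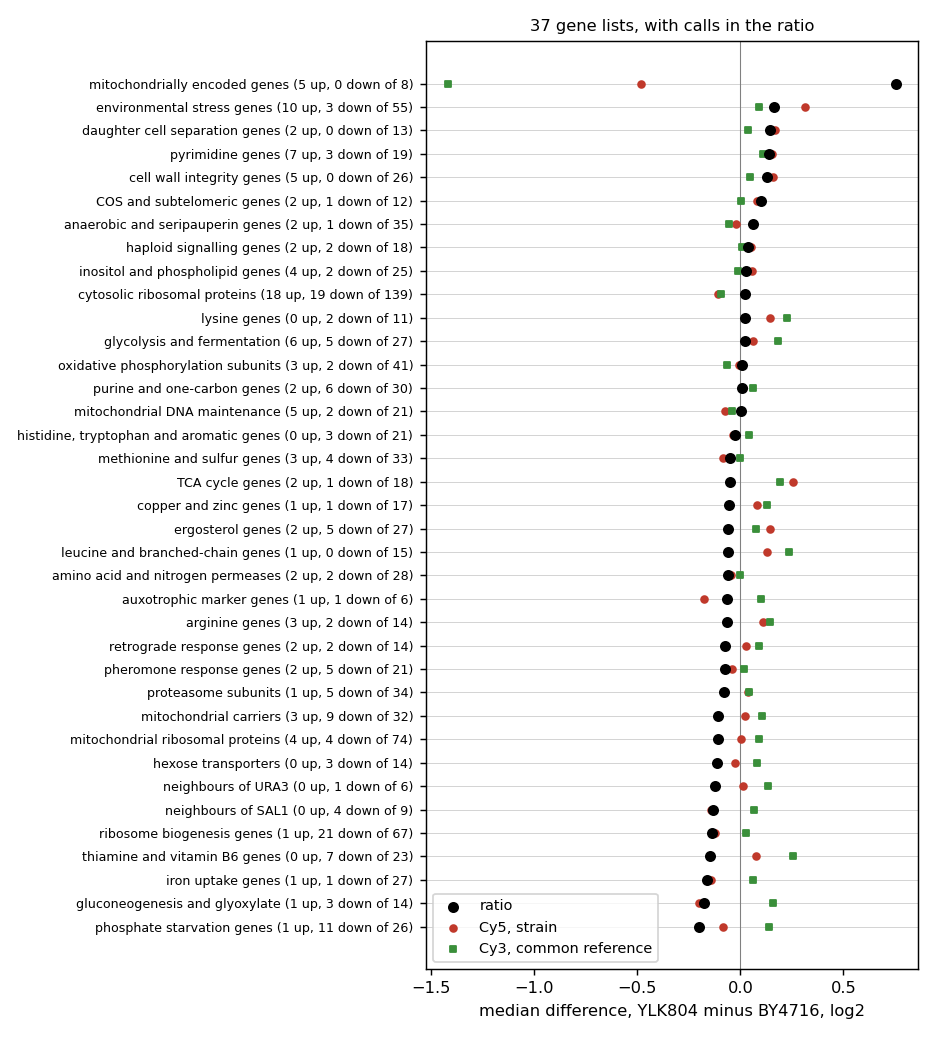
Median log2 difference between YLK804 and BY4716 over the tested members of 37 gene lists, in the ratio (black), in Cy5 (red circles) and in Cy3 (green squares), with the number of members called higher and lower in the ratio. The mitochondrially encoded genes lie at 0.76 in the ratio with both channels below 0, and the phosphate list is lowest at -0.20.

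YLK806 was on an array read on the same day as YLK804, so the change of YLK804 from BY4716 was set beside the change of YLK806 from RM11-1a. YLK806 had 1320 of 5863 genes called against RM11-1a (22.5%), 631 higher (10.8%) and 689 lower (11.8%). Of the 1200 genes called in YLK804 outside the mating type and URA3 lists, 682 were also called in YLK806 in the same direction (56.8% of these, and 52.5% of the 1299 called in YLK806 outside the lists), and 9 in the opposite direction. The exchanges of SAL1 in these strains run in opposite directions, from BY to RM in YLK804 and from RM to BY in YLK806. Same sign, called or not, was seen for 1125 of the 1200, against 75.7% of all tested genes outside the lists.

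The difference between both changes was tested gene by gene. It takes out what the YLK804 and YLK806 arrays share against their parents, and keeps mating type, URA3 and the allele of SAL1. It called 50 of 5863 genes (0.853%), 28 higher (0.478%) and 22 lower (0.375%), and 29 without BY4716 array 7 and 28 without BY4716 array 9. Of the 50, 18 lay in the mating type lists, 4 in the URA3 lists and 28 elsewhere. Its median SE was 0.0907, against 0.0641 for YLK804 with BY4716, so smaller differences could not be detected. The 18 mating type genes were the members of the a, alpha and loci lists. The 4 URA3 list genes were URA3, URA1, URA4 and TIM9. Fitted within the scan days that held more than 1 array, which uses the same YLK804 and YLK806 arrays, the differences of all 50 kept their sign. In that fit RM11-1a minus BY4716 rested on 1 array of each strain, so it cannot check the calls. The sum of both changes, which instead keeps what the exchange arrays share, called 2266 genes (38.6%), 1094 higher (18.7%) and 1172 lower (20%).

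Of the 28 genes elsewhere, 18 had a higher change in YLK804 than in YLK806, with the sign counted, and 10 a lower one. Those named here were chosen after their values were seen. RIB4 had a difference between changes of 1.48 ± 0.10 (SE, limma adjusted p = 0.000209), COS8 of 1.52 ± 0.09, YIR043C of 1.47 ± 0.08, and GYP8, a GTPase activator of vesicle traffic, of 0.73. The calls of COS8 and YIR043C were lost with plain background subtraction, and that of GYP8 without BY4716 array 7 or 11. GYP8 rose in YLK804 by 0.65, with Cy5 at 0.71 and Cy3 at 0.06. The systematic name of GYP8, YFL027C, places it beside the a-specific gene STE2, YFL026W. Whether its rise goes with mating type was not tested. WSC4 (0.53), ECM3 (0.35), YCL021W-A (0.30), LUC7 (0.42), DDR48 (0.39) and PBI2 (0.33) were also called higher in YLK804, and the difference between changes of each lay between 0.43 and 0.52. The calls of these 6 differences were lost without any 1 of the BY4716 arrays. That of PBI2 was lost in 14 of 18 alternatives. The change of PBI2 in YLK804 alone lost its call in 4 of 19 alternatives and was 6.4e-05 at its lowest. GSC2, a glucan synthase subunit gene, rose by 0.34 in YLK804 and fell by 0.58 in YLK806, and its call in YLK804 was lost without BY4716 array 7 or 11.

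In the other 6 of the 18, the change of YLK804 from BY4716 was not called, and YLK806 fell against RM11-1a. These were LEU2, DIC1, DLD3, SIL1, CUP9 and EPT1, whose calls were lost without any 1 of the BY4716 arrays, except that DIC1 kept its call without array 11. The call of EPT1 was lost in 15 of 18 alternatives. DIC1, the mitochondrial dicarboxylate carrier gene, had 0.17 in YLK804 and -0.52 in YLK806. DLD3, a cytosolic D-lactate dehydrogenase gene, had 0.11 in YLK804 and -0.42 in YLK806. LEU2 had -0.10 in YLK804 and -0.74 in YLK806, a strain whose RM11-1a parent lacks LEU2 by its known genotype.

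Among the 10 with the lower change in YLK804, with the sign counted, YCR041W, YCR097W-A, PHO89, SPL2 and SAL1 were already given. PHO89 had a difference between changes of -1.13 ± 0.09 (SE, limma adjusted p = 0.00106, lost with plain background subtraction) and SPL2 of -0.99 ± 0.15 (adjusted p = 0.0403). SUL1, a sulfate permease gene 2 places from PHO89 in the gene order, fell by 0.44 in YLK804 and rose by 0.19 in YLK806. SAL1 had -0.55 ± 0.07 (adjusted p = 0.0187). SNZ2, YPL088W and YBR012C fell by 0.24, 0.24 and 0.52 in YLK804, and the calls of their differences between changes were lost without any 1 of the BY4716 arrays. OLI1 was not called in YLK804 and was higher in YLK806 by 1.08, and the call of its difference was lost without BY4716 array 9. The call of SPL2 was lost without any 1 of the BY4716 arrays, where its difference between changes lay between -1.47 and -0.58 over all alternatives, and that of SAL1 likewise, between -0.66 and -0.53.

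**Figure D5:**
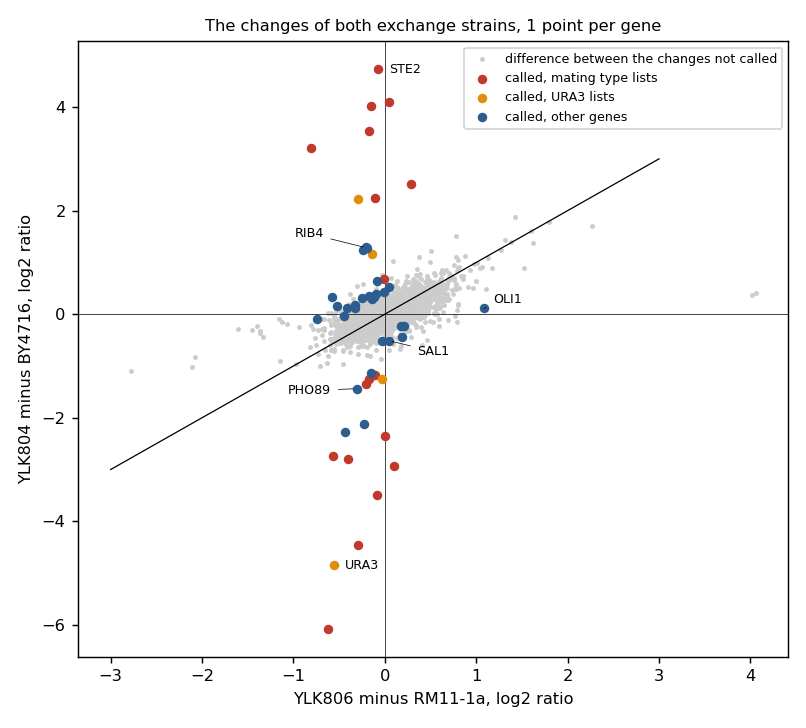
Log2 change of each tested gene in YLK804 minus BY4716 (vertical axis) and in YLK806 minus RM11-1a (horizontal axis), with the line of equal change, where colours mark the 50 genes whose difference between changes was called. STE2 at 4.73, URA3 at -4.84, RIB4 at 1.28 and PHO89 at -1.44 lie far from the line on the vertical axis, while OLI1 lies at 1.08 on the horizontal axis.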

How the data were processed

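RNA of 5 strains was measured on 9 Agilent yeast arrays with 2 channels. Per the labels' protocols, hot acid phenol and a clean-up kit were used to extract RNA. Spot and local background intensity in each channel was deposited as read by Feature Extraction, in version 9.1.3.1 for both SAL1 exchange strains and 8.5.1.1 otherwise, per the file headers. They also hold a log10 ratio of Cy5 over Cy3, deposited by the authors, made from background-subtracted, dye-normalized signals, per the file headers. A value table of log2 ratios was also deposited by the authors, equal to the scanner ratios on the log2 scale within 5e-04, with column medians from 0 to 0.008 and 0 columns of other samples.

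Mean signals were corrected with normexp (offset 50), normalized by loess within arrays, and averaged over the spots of a gene in limma 3.58.1 under R 4.3.3, without control spots and spots flagged as outliers. Single channels were taken after loess and Aquantile. Tested genes were well above background, in Cy5 or Cy3, on 3 or more of the 9 arrays. One model of 5 groups (lmFit, eBayes) was fitted to all arrays, with 4 residual and 3.38 prior degrees of freedom, and calls had a Benjamini-Hochberg adjusted p under 0.05. The number of arrays and signal over background limit the precision. "At least" folds set the brighter group against the higher of the dim gene's own signal and the lowest signal well above background, per array, in Cy5. Without swapped dyes, dye bias can enter these folds.

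Symbols came from the R64 gene table, which matched 5756 of 6256 systematic names, and the array's own build is not given in the sources used here. The members and the 40 gene lists were chosen with earlier results of these data known. Named genes were, apart from a few results not reported here, the members of the mating type a, alpha, loci, pyrimidine, neighbour and marker lists and HO, the 15 largest called rises and falls in the ratio and 6 in each channel outside the lists, and up to 5 called members of each other list. FUS1, RPL39, PHO11, VTC1, PHO90, PHO81, VTC2, VTC4, PHO4 and PHO5, OLI1, VAR1, COX2, TAF2 and the genes of the difference between both changes were added after their values were seen. The script was tested on simulated data with 200 changed genes in YLK804 on 5865 genes. It recovered 89.6% of 1.5-fold, 92.5% of 2-fold and 95.5% of 4-fold changes, with median estimates of 0.754, 0.752 and 0.618 of the true log2 difference. The simulation held no shift of scan day or common reference.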

Additional observations from a re-analysis of the deposited data

Results flagged for a closer look

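Strains with the RM and the BY allele of SAL1 were compared in both backgrounds, as YLK804 minus BY4716 and as RM11-1a minus YLK806. Each is called an allele difference here, but it also holds all else that differs between the strains and arrays of the pair. A test of the difference between these values called 2266 of 5863 genes (38.6%, limma adjusted p under 0.05), 1094 higher and 1172 lower in the BY background. The test is the sum of both changes given above, so it keeps what the exchange arrays share. Mating type, URA3 and the scan day of both exchange strains move with this test, and their part in the count was not tested. For SAL1 itself the allele difference was -0.51 in the BY background and -0.04 in the RM background, a difference of -0.47 (adjusted p = 0.00305). For PHO89 it was -1.44 and 0.31, a difference of -1.75 (adjusted p = 5.21e-05). For SPL2 it was -1.14 and 0.16, a difference of -1.30 (adjusted p = 0.0012). For COS8 it was 1.31 and 0.21, a difference of 1.096 (adjusted p = 0.000377), and for RIB4 1.28 and 0.20, a difference of 1.08 (adjusted p = 0.000541).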

How the results depend on the processing

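In place of 1240 genes in YLK804 against BY4716, 629 were called with median centring in place of loess and 1965 with the BY4716 and YLK804 arrays alone, where the spread comes from 3 arrays. Outside the mating type and URA3 lists these settings gave 598 and 1913 in place of 1200. With each parental array left out, the counts ran from 590 to 1449, from 559 to 1405 outside the lists, from 1022 to 1679 in Cy5 and from 3149 to 3382 in Cy3. Leaving out BY4716 array 7 gave the lowest ratio count, 590, and array 11 gave 623. The 50 genes of the difference between both changes became 33 with plain background subtraction, 81 with scaling between arrays, 28 with the strict filter on dim probes and 159 with scan day as a fixed block on 6 arrays, and 28 to 63 without each parental array. The fixed block and the moves of AFB1, YCR041W and YCR097W-A between lists were chosen after seeing the data.

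With the replicate number of the parental arrays as a random block, at a correlation of -0.0733, 1246 genes were called, 1205 outside the lists, 1586 in Cy5, 3340 in Cy3 and 47 in the difference between both changes. Same-numbered BY4716 and RM11-1a arrays had deviations that correlated at -0.209, 0.135 and -0.175 for numbers 7, 9 and 11. Arrays with unlike numbers ran from -0.231 to 0.333. So few arrays cannot settle whether the numbers pair the samples. Both arrays numbered 9 were read on the same day. YLK804 has no such number.

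The median of the haploid signalling genes became -0.0089 with median centring, that of the oxidative phosphorylation subunits -0.0336 with median centring and -0.0418 with scaling, and that of TCA cycle genes 0.0141 with the deposited ratio. Medians of copper and zinc genes (0.0142) and inositol and phospholipid genes (-0.0272) changed sign with median centring. CIT3 was at 0.0275 with plain subtraction and 0.0465 with the deposited ratio, in place of -0.41. The largest differences kept their sign but not their size. MF(ALPHA)1 ran from -9.25 to -5.91 over the alternatives, in place of -6.08. The median of the a list ran from 3.25 to 5.16 and that of the alpha list from -6.53 to -3.50, the move of AFB1 included. The SE values given above do not hold this spread. The causes were not tested. One slide held 2 arrays, both of BY4716, so a slide effect could not be fitted. Arrays are few and dim genes have only bounds.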
